A study of Mus musculus with 20 samples.

Results

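The comparison set adult against day 21 supernatant RNA of the mouse preoptic area in the pools that were carried over from an earlier series. It holds 8 of the 20 libraries, chosen by title: 2 young pools, numbered 1 and 2, and 2 adult pools, numbered 3 and 4, each sequenced in 2 sets. Each pool joined preoptic punches from 3 to 4 female mice, at day 21 or at 70 to 150 days, the adults all in diestrus. At both ages the mice were GnRH CRE x Floxed L10a-GFP, so that ribosomal protein L10a carries GFP in cells where the GnRH promoter drives Cre. The supernatant is what remained of the lysate after tagged ribosomes had been pulled down, labelled GnRH depleted. The series title speaks of prenatal androgenization, and the prenatal treatment of these mice is not given in the labels used here. The first and second sequencing sets are libraries of the same pool, so their counts were summed and the pool was the replicate, 2 a side. A further 6 supernatants of other mice, called new pools here, stand beside them: 3 young (2 Wild Type, 1 Floxed L10a-GFP only) and 3 adult (2 GnRH CRE only, 1 GnRH CRE x Floxed L10a-GFP).

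The preoptic area is the forward part of the hypothalamus and holds most cell bodies of GnRH neurons, which drive the pituitary control of the ovary. Between weaning age and adulthood its kisspeptin neurons come under the influence of ovarian estradiol, and its fibre tracts go on acquiring myelin. Oligodendrocytes form from dividing precursors through a short-lived premyelinating stage, which has its own set of transcripts, before they keep up finished myelin sheaths.

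Summed counts were 65.9 to 81.2 M per pool, and 3 counts, the limit used for detection, were worth 0.0370 to 0.0455 counts per M (CPM). CPM values in the text are scaled by the trimmed mean of M-values (TMM). Pan-neuronal genes summed to 7366 to 8460 CPM in the 4 pools. All 14 genes of a list of regional transcription factors and markers of the forebrain and hypothalamus, among them Nkx2-1, Six3 and Lhx8, were detected. Pools of one age did not hold equal tissue. Markers of meninges and fibroblasts summed to 575 CPM in young pool 1 and 64.9 in young pool 2, and to 748 and 345 CPM in adult pools 3 and 4. The cortical glutamate transporter gene Slc17a7 ran from 57.8 CPM in young pool 1 to 2.00 in young pool 2, and from 33.9 CPM in adult pool 3 to 3.26 in adult pool 4. Pericyte and smooth muscle markers stood at 163 CPM in adult pool 3 against 26.6 to 50.0 in the other three pools, mostly through Acta2, smooth muscle actin, at 83.7 against 3.00 to 8.98 CPM. The part of these differences in the results below was not tested.

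Across 10288 well-expressed genes, the median absolute log2 difference between the libraries of one pool in the first and second set was 0.19 to 0.22. Pools of one age within a set differed by 0.13 to 0.18, and adult from young pools by 0.15 to 0.25. For the typical gene, then, the step between ages was about as large as that between sequencing sets of the same RNA.

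Few genes stood out from this spread. By edgeR's quasi-likelihood test, 17 of 16387 genes passed an adjusted p of 0.05 (0.104%), of which 5 were higher (0.0305%) and 12 lower in adults (0.0732%). In each of the 17, all 4 adult libraries lay on one side of all 4 young ones, which happened for 877 genes upward (5.35%) and 1078 downward (6.58%) among all genes tested. The p-values measure the spread between these pools alone. Each gene had 2 residual degrees of freedom, and its spread was drawn toward that of all genes tested. Leaving out adult pool 3 or adult pool 4 left no gene past the threshold by edgeR (860 and 1389 genes at an unadjusted p below 0.05), while leaving out young pool 1 or 2 gave 269 and 1536. All 17 kept their direction in each of these fits, which their separated libraries left little room to change. By limma voom 12 of the 17 passed, with Serpinb1a, Neat1, Cldn14, Bfsp2 and Rnf122 at adjusted p from 0.0538 to 0.0705. For reading the gene lists that follow, 13.8% of all genes had an unadjusted p below 0.05 by edgeR (6.36% higher, 7.43% lower in adults), 51.8% had a log2 change above 0, and DESeq2 called 1.68% higher and 2.49% lower of 15433.

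Il33, which encodes a nuclear alarmin cytokine made in mouse brain by oligodendrocytes and astrocytes, had the smallest p. Its 4 young libraries held 9.08, 9.03, 8.01 and 7.02 CPM (pool 1 in the first and second set, then pool 2). The 4 adult libraries held 71.9, 64.1, 75.0 and 69.2 CPM in the same order. The groups were far apart and the libraries of one age close together, so that Il33 rose by log2 3.08 (SE 0.14, adjusted p = 0.00657 by edgeR), an 8.48-fold step. Serpinb1a, a serpin that inhibits neutrophil-type serine proteases, went from 1.03 and 1.51 CPM in the young pools to 11.8 and 15.7 CPM in the adult pools (log2 3.45, SE 0.28, adjusted p = 0.0344). Its mean level lay under the level set for naming genes, and it is given because it was followed throughout. Neat1, the long noncoding RNA that scaffolds paraspeckles in the nucleus, rose from 5.34 and 4.49 to 28.5 and 19.8 CPM (log2 2.30, SE 0.22, adjusted p = 0.0415). Car2, the carbonic anhydrase of oligodendrocytes and some other glia, rose from 139 and 130 to 278 and 321 CPM (log2 1.16, SE 0.10, adjusted p = 0.0375).

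Cwc22, a spliceosome factor gene, completed the 5 rises at 11.8, 10.2, 12.3 and 12.2 CPM in the young and 82.4, 114, 60.8 and 86.4 CPM in the adult libraries, in the order used for Il33 (log2 2.89, SE 0.17, adjusted p = 0.011). Mouse strains are known to differ in the number of Cwc22 copies. The strain is not given in the labels used here, so its part in the difference was not tested, and counts of this gene are uncertain.

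Among the 17 genes past the threshold, the steepest fall was that of 9630013A20Rik. RefSeq lists it with the synonym lncOL1, a long noncoding RNA known from differentiating oligodendrocytes. It falls outside the naming rule for its symbol and is named because its values were seen. The young libraries held 30.5, 36.3, 20.8 and 27.1 CPM and the adult libraries 1.31, 2.21, 1.03 and 1.96 CPM. It fell by 4.13 on the log2 scale (SE 0.23, adjusted p = 0.011 by edgeR), with no overlap between the ages. The annotation calls it antisense, and without a stated strand setting its reads cannot be told from those of an overlapping gene. Cldn14, a tight junction claudin and likewise named after its values were seen, went from 4.50 and 3.82 to 0.263 and 0.333 CPM (log2 -3.80, SE 0.34, adjusted p = 0.0375).

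Among the other falls, Mobp, a major basic protein of compact myelin, fell from 554 and 438 CPM to 158 and 159 CPM (log2 -1.64, SE 0.13, adjusted p = 0.0344). Gal3st1, the sulfotransferase that makes the myelin lipid sulfatide, went from 59.4 and 55.3 to 22.1 and 22.6 CPM (log2 -1.35, SE 0.11). Sirt2, a deacetylase abundant in myelin, went from 443 and 364 to 158 and 175 CPM (log2 -1.27, SE 0.12). Bcas1, which marks oligodendrocytes that are starting to myelinate, held 44.6 to 57.8 CPM in the young and 16.4 to 26.4 CPM in the adult libraries (log2 -1.30, SE 0.12). All of these passed the threshold without overlap between the ages, which were conditions for naming them.

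The list of falls goes on with genes of other known roles. Marcksl1, a MARCKS-like regulator of actin in growing neurites, fell from 865 and 893 to 423 and 429 CPM (log2 -1.04, SE 0.08), and Dpysl4, a collapsin response mediator, from 99.3 and 88.5 to 37.5 and 42.1 CPM (log2 -1.23, SE 0.11). Beta-s, the adult beta globin of red cells (Hbb-bs in RefSeq), fell from 33.3 and 30.7 to 10.6 and 11.4 CPM (log2 -1.53, SE 0.13). Rnf122, a membrane ubiquitin ligase (-1.46, SE 0.15), Dcakd, a coenzyme A kinase homologue (-0.98, SE 0.09), and Bfsp2, an intermediate filament gene best known from the lens (-1.84, SE 0.17), make up the 12. Beta globin genes are near-identical copies, so their counts are uncertain. Some mouse strains are known to carry a deletion in Bfsp2, and the part of strain in its fall was not tested.

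**Figure D1:**
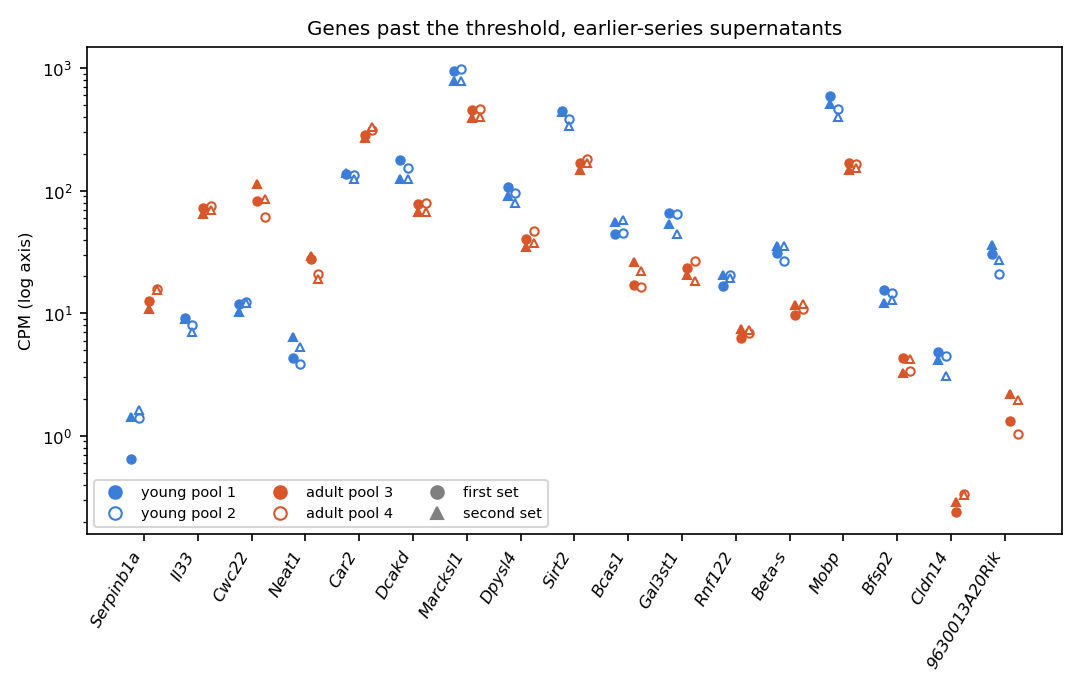
CPM on a log axis of the 17 genes past the threshold, ordered from the largest rise (Serpinb1a) to the largest fall (9630013A20Rik). Blue is young, red adult, filled and open symbols are the pools of one age, and circles and triangles the first and second sequencing sets. In every gene the 4 red points lie on one side of the 4 blue ones.

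Of these 17 genes, 11 had an entry in the RefSeq promoter table (GRCm38.p6, 250 bases before to 50 after the start), covering 16 start sites. The windows of Il33, of the noncoding 9630013A20Rik and of Mobp are printed here because they mark where these transcripts begin. Capitals mark CAGCTG, an E-box of the kind bound by basic helix-loop-helix factors, and AACAAT, a SOX-type core, both searched on both strands. These motifs cannot overlap each other.
Il33, upstream start site, chr19:29924863-29925162 (plus strand): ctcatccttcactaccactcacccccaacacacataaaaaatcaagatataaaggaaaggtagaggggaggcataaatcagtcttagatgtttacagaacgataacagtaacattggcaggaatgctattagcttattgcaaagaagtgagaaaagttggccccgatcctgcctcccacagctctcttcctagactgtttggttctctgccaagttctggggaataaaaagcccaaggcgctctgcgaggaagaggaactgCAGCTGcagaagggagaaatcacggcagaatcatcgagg
Il33, downstream start site, chr19:29945540-29945839 (plus strand): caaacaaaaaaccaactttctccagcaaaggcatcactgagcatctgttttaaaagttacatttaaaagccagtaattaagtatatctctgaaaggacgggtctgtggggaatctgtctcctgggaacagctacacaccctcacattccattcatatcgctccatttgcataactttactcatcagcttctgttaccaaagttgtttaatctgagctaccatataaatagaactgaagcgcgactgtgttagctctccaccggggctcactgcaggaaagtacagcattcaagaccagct
9630013A20Rik chr14:84476375-84476674 (minus strand): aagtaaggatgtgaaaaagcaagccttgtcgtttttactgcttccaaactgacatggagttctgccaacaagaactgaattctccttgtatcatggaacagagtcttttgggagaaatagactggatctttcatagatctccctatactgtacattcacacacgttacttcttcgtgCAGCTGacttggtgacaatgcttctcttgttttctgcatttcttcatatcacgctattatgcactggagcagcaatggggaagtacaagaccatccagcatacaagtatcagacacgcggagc
Mobp chr9:120149492-120149791 (plus strand): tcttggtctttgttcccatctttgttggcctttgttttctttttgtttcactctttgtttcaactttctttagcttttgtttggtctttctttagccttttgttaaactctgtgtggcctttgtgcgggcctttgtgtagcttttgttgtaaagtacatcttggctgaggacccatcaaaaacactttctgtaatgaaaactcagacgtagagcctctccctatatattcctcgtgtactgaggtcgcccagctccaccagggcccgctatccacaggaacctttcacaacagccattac
Il33 lies on chromosome 19 from 29925114 to 29960718, 9630013A20Rik on chromosome 14 from 84458639 to 84476424 and Mobp on chromosome 9 from 120149707 to 120181484 (mm10). CAGCTG stood in 4 of the 16 windows, 2 of them overlapping windows of Cldn14, where 16.4% of the 32544 windows in the table hold it. AACAAT stood in 1 of 16, a window of Cldn14, where 10.6% of the table do. Which Il33 start site was used cannot be read from counts per gene.

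The list of 20 mature oligodendrocyte and myelin genes did not move one way. Il33 and Car2 rose and Mobp fell, and the median change was log2 -0.48, against 0.01 for all genes tested. By DESeq2 5 rose and 10 fell (1.68% and 2.49% of all genes). In 6 genes all adult libraries lay above all young ones (5.35% of all genes) and in 9 all lay below (6.58%). Among those below without passing the test were Cnp, a myelin phosphodiesterase, at 1307 and 1093 against 550 and 622 CPM (log2 -1.03, SE 0.12, adjusted p = 0.0731), and Mbp, the main myelin basic protein (-0.87, SE 0.12). Ugt8a, the enzyme that makes galactosylceramide, stood at 39.1 and 43.6 against 13.9 and 17.4 CPM (log2 -1.40, SE 0.15, adjusted p = 0.064). Among those above without passing were Trf, the iron carrier transferrin, at 79.0 and 115 against 219 and 202 CPM, Apod, a lipid-binding lipocalin (log2 1.12, SE 0.18), and Hapln2, a link protein of nodes of Ranvier, at 7.83 and 6.05 against 18.1 and 17.4 CPM. Mag and Mog had log2 changes of -0.62 and -0.76, and Opalin, Ermn and Aspa of 0.22, 0.20 and 0.26, none past the threshold. The summed list stood at 5421 and 5138 CPM in the young and 3365 and 3459 CPM in the adult pools. In the new pools the sums overlapped, at 5270 to 7643 CPM in the young and 3676 to 6928 CPM in the adults. The median change of the list there was log2 -0.10. In bulk RNA, fewer cells of a type and less RNA per cell cannot be told apart.

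Precursor and premyelinating genes were mostly lower in value. Of 12, Bcas1 fell and none rose by edgeR, and the median was log2 -0.69. By DESeq2 7 fell (2.49% of all genes), and 7 lay below in all adult libraries (6.58% of all genes). Enpp6, of newly formed oligodendrocytes, stood at 8.74 and 13.4 against 2.74 and 2.80 CPM (log2 -1.99, SE 0.26, adjusted p = 0.084). Gpr17, a receptor of the premyelinating stage, stood at 35.5 and 43.0 against 15.9 and 11.2 CPM, and the lineage factor Olig1 at 408 and 363 against 225 and 219 CPM. Pdgfra, the growth factor receptor that defines dividing precursors, overlapped between ages at 8.04 and 11.5 against 11.6 and 7.90 CPM, as did Lhfpl3 and Cspg4.

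**Figure D2:**
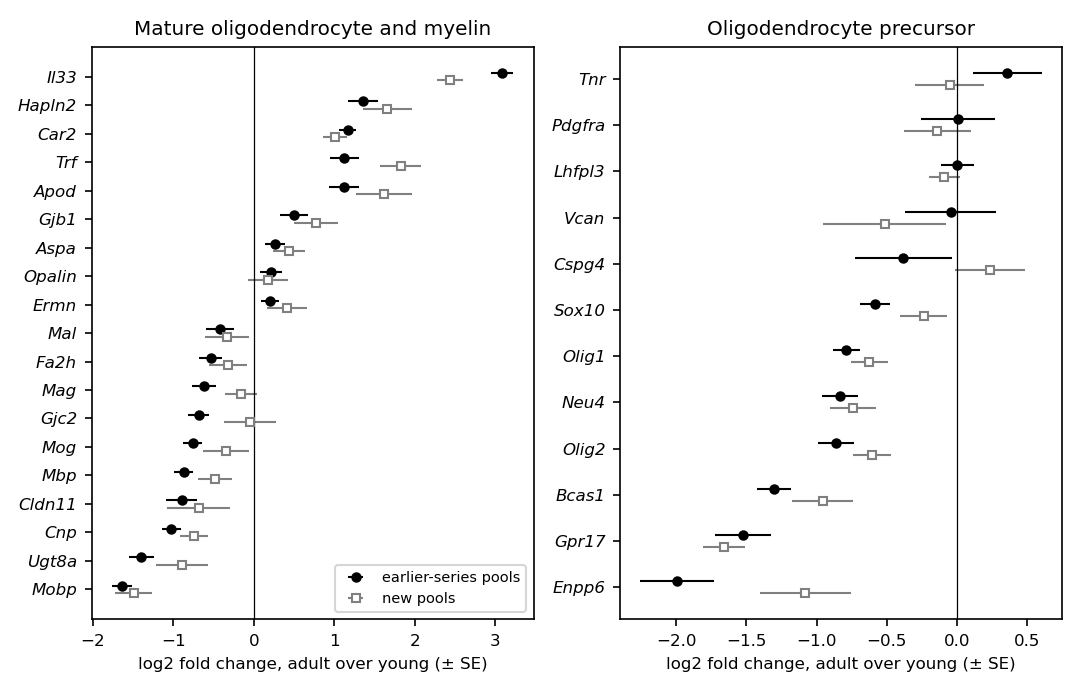
Log2 fold change, adult over young, of 19 genes of the mature oligodendrocyte list (left) and the 12 of the precursor list (right). Points are fitted values and bars 1 SE, filled for the earlier-series pools and open for the new pools. In the left panel Il33 lies highest at 3.08 and Mobp lowest at -1.64, and each gene has the same sign in both sets of pools. In the right panel 8 of 12 do, against 69.1% of all genes tested in both.

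Immature neuron genes had a like balance. Of 16, Marcksl1 fell and none rose by edgeR, and the median was log2 -0.46. By DESeq2 9 fell (2.49% of all genes), and 8 lay below in all adult libraries (6.58% of all genes). These included Stmn2, a microtubule regulator of growth cones, at 870 and 823 against 586 and 618 CPM, Dpysl5 at 91.9 and 98.1 against 59.2 and 63.6 CPM, and the tubulin genes Tubb2b (log2 -0.57, SE 0.12) and Tubb3 (-0.60, SE 0.15). Dcx, the migration protein doublecortin, overlapped at 10.9 and 9.22 against 10.6 and 9.98 CPM, and so did Gap43 and Stmn1. No gene of the cell cycle list passed by edgeR (6 at an unadjusted p below 0.05, all lower, against 7.43% lower among all genes; 3 falls by DESeq2 against 2.49%; 0 by limma voom). In 5 of 16 all adult libraries lay below, against 6.58% of all genes. Those were the mitotic genes Top2a (1.01 and 0.653 against 0.113 and 0.151 CPM), Ccnb1, Ccnb2 and Cdk1 and the nucleotide synthesis gene Rrm2. The replication genes Mcm2 and Pcna had log2 changes of 0.48 and 0.13.

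The reproductive axis was led by Kiss1, the precursor of kisspeptin, which stimulates GnRH neurons. Kiss1 held 2.13 and 5.49 CPM in the young pools and 20.4 and 28.3 CPM in the adult pools. The ages did not overlap, but the young pools differed by over 2-fold, and the change did not pass by edgeR (log2 2.69, SE 0.44, adjusted p = 0.118). Gnrh1 stood at 19.4 and 20.6 against 36.8 and 42.9 CPM (log2 1.00, SE 0.13, adjusted p = 0.084). Both passed by DESeq2 and without the filter on low counts, and neither by limma voom. These levels are of RNA left after the GnRH pull-down, and the share removed was not measured here. Pdyn, the dynorphin precursor (log2 0.88, SE 0.33), was the third of 11 genes of this list with all adult libraries above (5.35% of all genes). None of the list passed by edgeR or limma voom. At an unadjusted p below 0.05 there were 4, all higher (6.36% of all genes), and DESeq2 called 3 rises (1.68% of all genes). The kisspeptin receptor Kiss1r overlapped at 8.78 and 8.98 against 10.7 and 7.28 CPM. Of 10 genes tested for sex steroid signalling, none passed by edgeR or voom. At an unadjusted p below 0.05 there were 2 (13.8% of all genes). DESeq2 called 1 rise and 1 fall (1.68% and 2.49% of all genes). Among the receptors, Pgr stood at 26.6 and 30.1 against 28.9 and 33.0 CPM and Esr1 at 18.6 and 21.7 against 22.8 and 17.8 CPM. Rpl10a, the ribosomal protein that carries the tag, held 103, 103, 103 and 106 CPM.

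Neuropeptide, receptor and channel lists had no gene past the threshold by edgeR or limma voom. At an unadjusted p below 0.05 there were 4 of 20 neuropeptide, 4 of 14 GABA-A receptor and 4 of 15 glutamate receptor genes. Sodium channels had 2 of 10 and potassium channels 7 of 17, and DESeq2 called 2, 0, 1, 1 and 1 in the order given. These stand against 13.8% of all genes at that unadjusted p and 4.17% called by DESeq2. Of 20 neuropeptide genes, 3 lay above in all adult libraries: Penk, the enkephalin precursor, at 151 and 274 against 410 and 369 CPM, Cartpt at 33.9 and 53.1 against 69.4 and 75.2 CPM, and Ghrh. Their sum was 564 CPM in young pool 1 and 1174 in young pool 2, against 1478 and 1161 CPM in adults, so young pool 2 stood with the adults. GABA-A receptor subunits had a median of log2 0.44 with 13 of 14 values above 0, and 15 of 15 glutamate receptor values and 10 of 10 sodium channel values were above 0 (51.8% of all genes). Young pool 1 was lowest in each sum: GABA-A receptors summed to 481 and 703 against 809 and 742 CPM, glutamate receptors to 476 and 688 against 812 and 660 CPM, and sodium channels to 527 and 692 against 745 and 698 CPM. Young pool 2 lay within or near the adult range. All adult libraries lay above in 2 of 14, 1 of 15 and 1 of 10 genes of these lists, where 5.35% of all genes did. Genes of striatal neurons, a forebrain region near the preoptic area, were higher in value in 10 of 10 cases (8 at an unadjusted p below 0.05, 3 rises by DESeq2) and summed to 1226 and 1402 against 1912 and 1680 CPM. The part of these genes in the values of the receptor lists was not tested.

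Immune, astrocyte and vascular lists had no gene past the threshold by edgeR or limma voom either. At an unadjusted p below 0.05 there were 4 of 12 microglial, 6 of 12 complement and class I, 1 of 12 interferon and 6 of 12 astrocyte genes. The mural list had 1 of 10 and the endothelial list 0 of 12, against 13.8% of all genes. All were higher in adults but 1 astrocyte and the mural gene. DESeq2 called 2 in complement and class I, 1 higher and 1 lower in astrocytes and 0 in the others (4.17% of all genes). Microglial markers had a median of log2 0.77, with sums of 49.0 and 51.1 CPM in young pools, 100 in adult pool 3 and 58.6 in adult pool 4, so that most of the difference lay in 1 pool. B2m, the light chain of class I antigen-presenting molecules, stood at 12.9 and 11.4 against 23.7 and 22.3 CPM (log2 0.92, SE 0.14, adjusted p = 0.103), and the immunoproteasome gene Psmb8 at 2.93 and 2.09 against 6.98 and 6.15 CPM. Of 5 blood genes tested 3 lay below in all adult libraries (6.58% of all genes), Beta-s among them. Another was Alas2, the haem synthesis enzyme of erythroid cells, at 5.60 and 6.49 against 1.70 and 1.80 CPM. Of 12 astrocyte markers 10 had a log2 change above 0 (51.8% of all genes), with a median of 0.20. In 3 of them, Mfge8, Slc1a3 and Gja1, all adult libraries lay above (5.35% of all genes). The 12 markers summed to 1573 and 1468 against 1465 and 1467 CPM, and Gfap stood at 263 and 209 against 136 and 169 CPM. Cholesterol synthesis genes, which feed myelin, had a median of log2 0.08 with 0 of 18 past the threshold by edgeR, DESeq2 or voom. At an unadjusted p below 0.05 there were 4, 3 higher and 1 lower (6.36% and 7.43% of all genes).

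**Figure D3:**
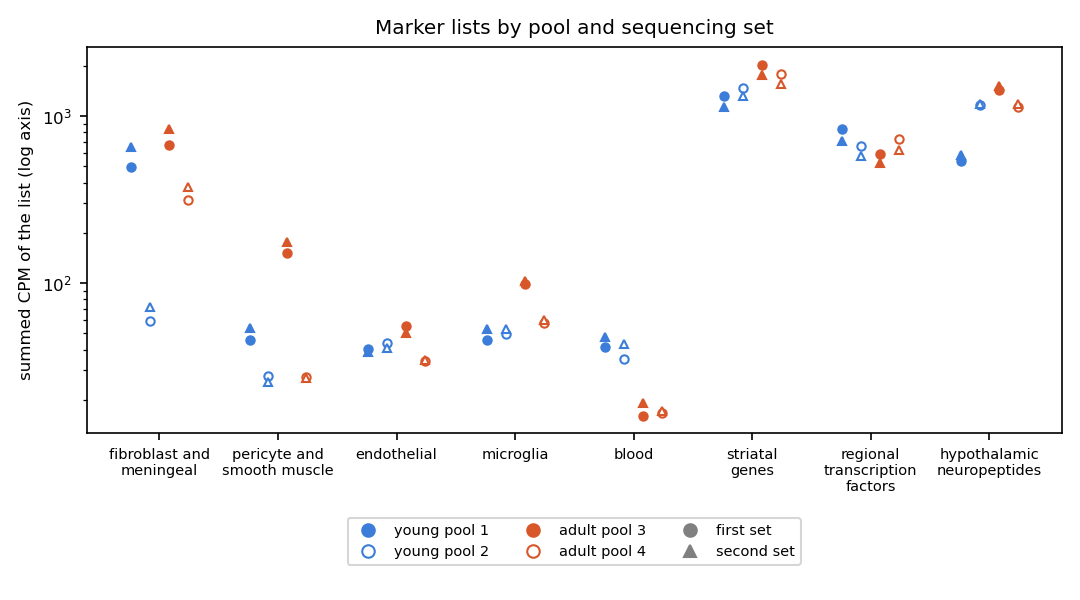
Summed CPM, on a log axis, of 8 marker lists in each pool and sequencing set (blue young, red adult, filled and open symbols the pools of one age). Fibroblast and meningeal markers lie at 64.9 CPM in young pool 2 and 575 in young pool 1, smooth muscle markers are high in adult pool 3, and blood markers are lower in both adult pools.

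Below the threshold, the naming rule adds genes with all adult libraries on one side. Above were Cd59a, a complement inhibitor (log2 1.55, SE 0.18), Scd1, a fatty acid desaturase (1.19, SE 0.15), Efhd1, a mitochondrial calcium-binding protein (1.00, SE 0.13), and Cbx7, a Polycomb subunit (0.91, SE 0.12). Qdpr, which regenerates tetrahydrobiopterin (0.67, SE 0.08), and Cryab, a small heat shock protein (0.64, SE 0.09), followed. Below was Inpp5f, a phosphoinositide phosphatase (-0.89, SE 0.10). None passed by edgeR with the filter, with adjusted p from 0.064 for Inpp5f to 0.0967 for Cryab, nor by limma voom. All 7 passed by DESeq2, and by edgeR without the filter on low counts.

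Each sequencing set taken alone gave 28 calls of 15698 genes in the first set (0.178%), 6 higher (0.0382%) and 22 lower (0.14%), and 11 of 15621 in the second set (0.0704%), 5 higher (0.032%) and 6 lower (0.0384%). Of the 17 genes, 16 passed in the first set and 9 in the second. The sign was the same in both for all 17, as their separated libraries all but require. The sets share their pools, so this is a check of sequencing and not of the mice. Il33 changed by log2 3.11 in the first set and 3.07 in the second, Mobp by -1.68 and -1.58, and Serpinb1a by 3.81 and 3.12. The widest gap between sets among the 17 was 0.69.

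The new pools came from separate mice and share no library with these. There, 481 of 15593 genes passed (3.08%), 210 higher (1.35%) and 271 lower (1.74%) in adults. Of the 17 genes, 16 had the same sign there and 14 passed, against 69.1% with the same sign among all 15541 genes tested in both. Il33 held 13.4, 18.4 and 13.1 CPM in the young new pools and 93.0, 74.5 and 76.1 CPM in the adult ones (log2 2.44, SE 0.16, adjusted p = 0.000492 by edgeR). Serpinb1a held 2.08, 2.70 and 2.29 against 18.7, 13.6 and 24.7 CPM, and 9630013A20Rik 41.3, 54.8 and 23.0 against 1.60, 2.29 and 5.72 CPM. None of these groups overlapped. Mobp changed by log2 -1.50 (SE 0.23), Neat1 by 1.37 (SE 0.20) and Car2 by 1.00 (SE 0.15), each past the threshold. Read the other way, 458 of the 481 genes called in the new pools had the same sign in the earlier-series pools, 313 of them at an unadjusted p below 0.05. Among all 15541 genes tested in both, 10737 had the same sign, 1958 of them at an unadjusted p below 0.05 in the earlier-series pools. Fold changes had a rank correlation of 0.484 over all 15541 genes tested in both and 0.622 over the 10288 well-expressed ones. Both are given as a description, since genes are not independent. In the new pools age and genotype changed together, which they did not in the earlier-series pools.

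**Figure D4:**
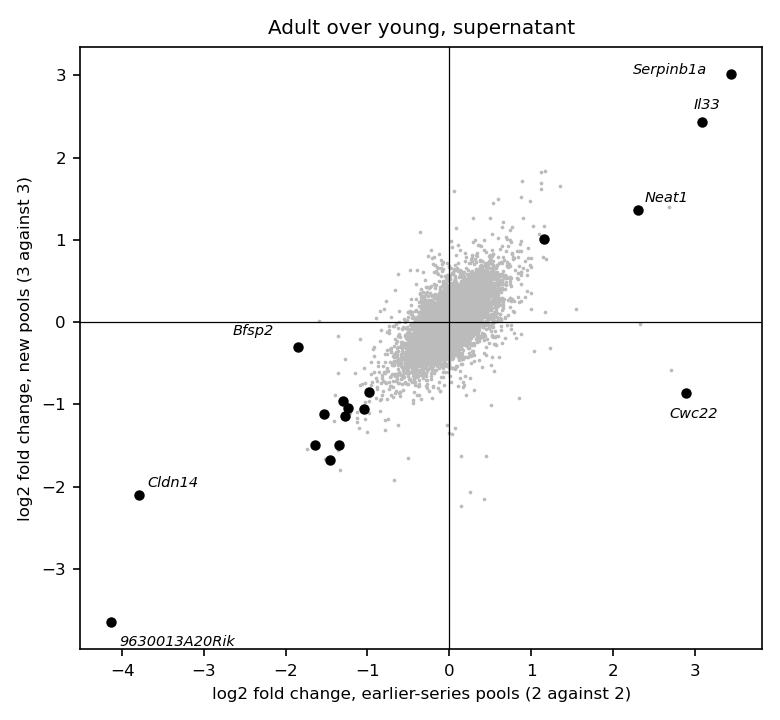
Log2 fold change, adult over young, in the earlier-series pools (horizontal) and in the new pools (vertical). Grey dots are genes with a mean log2 CPM of at least 3, and black dots are the 17 genes past the threshold in the earlier-series pools. Of the black dots, 16 have the same sign on both axes; Cwc22, at 2.89 and -0.87, does not.

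The difference of the age effect between the earlier-series and the new pools was tested within the second sequencing set. Of 16206 genes, 1 passed by edgeR (0.00617%), with 588 at an unadjusted p below 0.05, while limma voom called 0 and DESeq2 9. None of the 17 genes passed that test, and Il33 and Cwc22 were the 2 with an unadjusted p below 0.05. The gene that passed was Gm5779, a transcribed pseudogene on chromosome 10 from 75344472 to 75353033 (mm10), named after its values were seen. It held 5.66 to 9.28 CPM in the young and 4.68 to 5.52 CPM in the adult earlier-series libraries. In the new pools it was at 0.141, 0.0262 and 0.214 CPM in the young and 12.2, 7.92 and 12.3 CPM in the adult libraries (difference of log2 changes -6.85, SE 0.61, adjusted p = 0.00115). The 3 libraries near 0 are those of mice without GnRH CRE, so age and genotype cannot be told apart for this gene in the new pools.

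Cwc22 did not follow age in the new pools. It held 32.2, 9.50 and 91.1 CPM in the young and 9.42, 54.1 and 9.50 CPM in the adult pools, so that some pools of either age stood above the others. Bfsp2 also varied among the young new pools, at 19.5, 19.8 and 0.916 CPM, but there a single pool was low. Cap1, an actin-binding protein gene, and Rab35, a GTPase of endosome recycling, lead the genes that the naming rule takes from this test without passing it. Cap1 stood at 71.8 to 116 CPM in the young and 107 to 131 in the adult earlier-series libraries, against 93.2, 108 and 201 CPM in the young and 32.8, 32.3 and 25.1 CPM in the adult new pools (adjusted p = 0.154). Rab35 (adjusted p = 0.388), Cacna1b, Cd59a, Dcun1d4 and Arrdc2 had differences of log2 -1.34, 2.27, 1.49, -1.02 and -1.08.

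**Figure D5:**
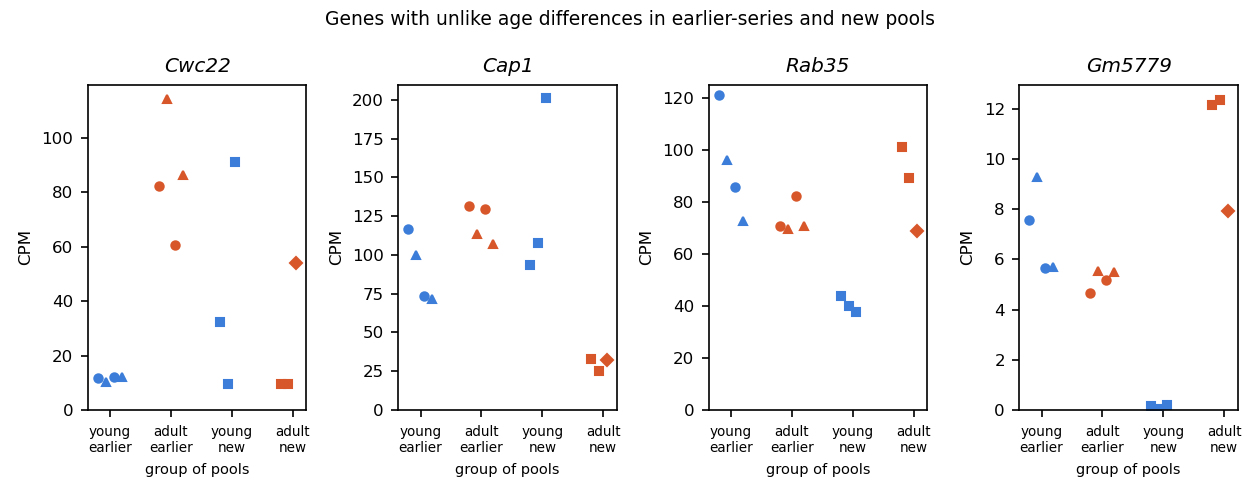
CPM of Cwc22, Cap1, Rab35 and Gm5779 in the 14 supernatant libraries, by age and origin of the pool. Circles and triangles are the first and second sequencing sets of the earlier-series pools, squares the new pools and the diamond the adult new pool with GnRH CRE x Floxed L10a-GFP. Gm5779 lies near 0 in the young new pools alone, and Cwc22 stands above the others in some new pools of either age.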

How the data were processed

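The table deposited by the authors gives raw integer counts, unnormalised, of 20 libraries at 19269 gene symbols. The submitters' processing notes name TopHat2 2.0.13, Bowtie2 2.2.1, HTSeq 0.6.1 and mm10. Annotation and strand setting: not given in the sources used here. Poly(A) RNA was amplified with a SMARTer v4 kit, per the labels' protocols.

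Counts of both libraries of a pool were summed. Age was tested with edgeR 4.0.16 (quasi-likelihood, TMM, filterByExpr with minimum count 10, Benjamini-Hochberg threshold 0.05) in R 4.3.3. CPM in the text are scaled over the 14 supernatant libraries. SEs are the log2 fold change divided by the square root of F.

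Named genes were, per direction, up to 12 with a mean log2 CPM of at least 3 and separated libraries, called genes first by fold change, then filled by p. Predicted symbols were left out. Up to 4 genes per list, 9 genes always followed and 6 from the test between origins were added. The members and lists were chosen with earlier results of these data known. Alternatives used limma voom 3.58.1, DESeq2 1.42.0, other scalings, no filter, each set alone and each pool left out. Scripts were tested on simulated data. Some single genes are not reported here, in text or figures, and remain in the counts and sums.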

Additional observations from a re-analysis of the deposited data

Results flagged for a closer look

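Gm5779 differed in its age effect between the earlier-series and the new pools by log2 -6.85 (SE 0.61, adjusted p = 0.00115 by edgeR), with values near 0 in the 3 young new pools. Its level in the 8 earlier-series libraries ran from 4.68 to 9.28 CPM. Rplp0, the ribosomal protein gene, held 290 to 408 CPM in all 14 supernatant libraries.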

How the results depend on the processing

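The count of 17 genes was 12 with limma voom, 17 with DESeq2 size factors in edgeR, 644 with DESeq2, 71 without the filter on low counts, 76 with the spread shared with the new pools, and 624 with all 8 libraries and the pool as a random effect, which counts libraries of a pool as part of the residual. It was 28 and 11 in the first and second set alone, and ran from 0 to 1536 with one pool left out, the lone pool of an age then being assumed to vary like the others. Total-count scaling, chosen after seeing the data, gave 8, and upper-quartile scaling 14. All 17 genes kept their sign in each of these 14 settings, which their separated libraries left little room to change. The cause of the moves was not tested. The first set gave 369 with DESeq2, 88 without the filter and 10 to 1141 with one pool left out. The second set gave 295, 114 and 0 to 996. In the second set no gene passed by edgeR without adult pool 3 or 4 (644 and 1152 at an unadjusted p below 0.05). The new pools gave 1285 with DESeq2, 42 to 1292 with one left out, and 256 with the negative-control pools alone. With a replicate block on these the count was 1405, but whether equal numbers stand for pairs is not settled here. Deviations of same-numbered pools correlated at -0.03 and -0.02. The deviations of the 2 adult pools mirror each other, so these values cannot show whether pools were paired. The earlier-series pools share no replicate number between ages. The test between origins gave 9 with DESeq2, 0 with voom, 2 without the filter, 9 with negative-control new pools alone and 1 to 9 with one left out.

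Values near 0 changed sign. Esr1, at log2 0.02, was -0.086 without young pool 1, -0.17 without adult pool 3, 0.18 without adult pool 4 and -0.019 in the second set. Kiss1r, at 0.03, was -0.28 without adult pool 3, 0.28 without adult pool 4 and -0.089 in the second set. With 2 pools a side, levels near 0.0370 to 0.0455 CPM rest on 3 counts, and floors cover counting error only.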
